A study of Rattus norvegicus with 176 samples.

Results

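Aqp3, Aqp9, Cidea and Plin2 were followed in the livers of F344 rats, an inbred strain, on Affymetrix arrays. Aqp3 and Aqp9 encode aquaglyceroporins, membrane channels that pass glycerol as well as water. Cidea and Plin2 encode proteins of the lipid droplet, the organelle in which a cell stores triglyceride. The genes were taken by name through the array annotation, which gave 4 of the 10411 genes with a probe set, on 5 of the 15922 probe sets. Plin2 had 2 probe sets, and for each gene the probe set with the highest mean log2 signal was used. In the rat assembly GRCr8 with RefSeq annotation, Aqp3 lies at chr5:61035165-61040683, Aqp9 at chr8:80678027-80718273, Cidea at chr18:63164817-63190384 and Plin2 at chr5:106202634-106258748.

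Triglyceride in a liver cell is made on a glycerol backbone and held in droplets, and its breakdown gives back fatty acids and glycerol. Glycerol from adipose tissue enters hepatocytes mainly through Aqp9 and is then phosphorylated for triglyceride synthesis or for glucose production. Plin2 coats the surface of droplets in hepatocytes, while Cidea, best known from brown fat, drives the transfer of lipid between droplets so that they enlarge. Clofibric acid (CA) is a fibrate, a lipid-lowering drug that activates the nuclear receptor PPARalpha in liver, and in rodents long treatment with such compounds leads to liver tumours.

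The series asked how the liver transcriptome of rats follows long exposure to CA, with and without DEN, which in this field stands for diethylnitrosamine, a carcinogen acting on the liver. Total RNA of liver sections was hybridised to 176 arrays, 1 section each. There were 4 arms, CA, DEN-CA (both agents), DEN and Control, with time labels -8, 5j, 1m, 3m, 9m, 12m and 18m. The titles named 5000 ppm CA for every rat, controls included, so the group labels and not the dose told the arms apart.

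CA rats were sampled from 5j to 18m and DEN-CA rats from 5j to 12m. DEN rats were sampled from -8 to 12m and Control rats from -8 to 18m. Each of these groups held 5 rats. A further CA group was labelled 18 without the m (6 rats). Other rats carried the tag rev, in the groups CA 18m rev (4 rats), DEN-CA 12m rev (5 rats), DEN 12 rev (6 rats), Control 18m rev (3 rats) and Control 12m rev (4 rats). These make 148 untagged sections in 30 groups, 1 section per rat. From 16 of the rats 23 further sections were labelled TU, and from 5 rats 1 section each was labelled PERI. The labels gave no meaning for j, -8, rev, TU or PERI, no age or sex, and no route or duration of DEN, and the groups are called here by these labels. Each value comes from a whole section of liver, in which fewer cells of a type and less RNA per cell cannot be told apart.

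Array medians ran from 25.35 to 187.25 in the deposited intensities. Each array was scaled to a median of 99.35, and levels below are these scaled signals, without unit. A level is relative to the median probe set of its array and cannot be compared between genes. Differences are log2 ratios after an offset of 25 was added, with limma's standard error (SE) and p-values adjusted over all probe sets tested. A difference passed where the adjusted p was below 0.05. Overlap of groups was looked at for the members only, and the share of all probe sets without overlap was not counted. All 5 probe sets were among the 12393 tested in untagged sections. Aqp3 entered through its signal in rats given CA: it stood above the 40th percentile of its array in 60 of 70 rats of the CA and DEN-CA arms (rev included), against 0 of 78 rats of the DEN and Control arms.

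One rat stood apart, 4137 of the CA 12m group. Its TU section had Aqp3, Aqp9 and Cidea at 224, 1569 and 989, and its PERI section at 261, 1713 and 1159, against 72.1, 463 and 668 in its untagged section, the lowest of the group for all 3 genes. Results that rest on it are given with and without it, except in the comparisons of PERI sections. Among the untagged arrays 46 had titles ending in B, a suffix the labels do not explain, and results within arrays with and without B are given where they matter. Some groups split this way held a single array, so only the sizes of these differences are given.

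Aqp3 and Cidea were the members that moved together with CA, so the 250 bases before their RefSeq starts are shown, 5′ to 3′ on the gene's strand in GRCr8. Capitals mark GGGCGG, the core of a GC box, on either strand of the window, and the TATA box, spelled TATAAA.
Aqp3, chr5:61040684-61040933, minus strand: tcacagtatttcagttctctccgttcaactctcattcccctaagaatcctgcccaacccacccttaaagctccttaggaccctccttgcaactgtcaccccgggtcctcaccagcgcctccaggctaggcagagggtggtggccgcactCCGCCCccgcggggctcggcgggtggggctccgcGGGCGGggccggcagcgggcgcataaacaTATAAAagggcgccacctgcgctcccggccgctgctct
Cidea, chr18:63164567-63164816, plus strand: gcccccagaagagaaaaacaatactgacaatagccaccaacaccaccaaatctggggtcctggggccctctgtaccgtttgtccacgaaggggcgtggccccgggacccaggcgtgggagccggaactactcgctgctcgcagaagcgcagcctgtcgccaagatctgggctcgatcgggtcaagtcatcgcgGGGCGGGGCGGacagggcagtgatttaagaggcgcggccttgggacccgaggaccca
The Aqp3 window held GGGCGG 2 times, ending 96 bases before the start on the opposite strand and 62 bases before it on the gene's strand, and a TATAAA that ended 33 bases before the start. The Cidea window held GGGCGG 2 times on the gene's strand, ending 52 and 47 bases before the start and overlapping by 1 base, and no TATA box. Counting both strands, the GC box core occurs in 30.5% and the TATA box in 12.9% of 33469 RefSeq promoter windows of this length. AGGTCA, the half-site bound by nuclear receptors, was in 14.1% of windows, and its repeat with 1 base between, AGGTCANAGGTCA, in 0.0508%. Neither of these was in the Aqp3, Aqp9, Cidea or Plin2 windows searched.

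Aqp3, a glycerol channel best known from kidney collecting duct and skin, stood in the middle or upper part of the arrays in rats given CA and at their dim end in rats without it. The median array percentile of the groups given CA ran from 47.1 (DEN-CA 9m) to 79.8 (DEN-CA 5j). At 5j the CA rats had 61.4, 98.6, 119, 391 and 450, against 2.53, 3.64, 5.73, 14.9 and 26.0 in Control rats. At 18m the CA rats had 169, 172, 210, 257 and 314, against 2.21, 3.19, 3.75, 4.21 and 15.3 in Control rats. The lowest CA rat was above the highest Control rat at both times, and the groups did not overlap at any of the 6 times.

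Over all times the CA arm had an Aqp3 median of 188 (61.4 to 450, 30 rats), against 3.94 (1.94 to 26.0, 30 rats) in the Control arm. The median CA section had Aqp3 at the 66.6th percentile of its array, and the median Control section at the 4.03rd percentile. The CA-over-Control difference was 2.52 ± 0.24 (SE) at 5j and 2.90, 2.72, 2.87, 2.61 and 3.00 at 1m, 3m, 9m, 12m and 18m, each with the same SE. Adjusted p was 1.7e-15 at 5j and 4.1e-20 at 18m, and all 6 times passed. At these times 11.2, 14.4, 14.2, 6.78, 11.7 and 6.79% of all tested probe sets passed in either direction. Without rat 4137 the 12m difference was 2.82.

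The mean CA effect over the 6 times was 2.77 ± 0.10 for Aqp3, 6.82-fold on the scale with the offset (adjusted p = 2.5e-52), in a comparison where 40.2% of probe sets passed. Most Control signals of Aqp3 lay below the offset of 25 (highest 26.0, median 3.94), and the size of this ratio moved with the offset: it was 4.08 with an offset of 6 and 1.45 with an offset of 99. The rise passed at every time under either offset. No detection calls were used, so the Control level is a bound set by the dim end of the arrays and not a measured amount.

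In rats that carried DEN the rise was seen again. At 5j the DEN-CA rats had Aqp3 at 217, 323, 342, 388 and 801, against 2.70, 3.26, 3.38, 5.39 and 23.7 in DEN rats. At 9m the DEN-CA rats had 78.2, 84.1, 88.8, 115 and 128, against 2.21, 2.38, 6.06, 20.0 and 21.1 in DEN rats. Ranges did not overlap at either time, and the 5j DEN-CA rats were all above the 9m ones.

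The DEN-CA-over-DEN difference of Aqp3 was 3.66 at 5j (adjusted p = 2.9e-26) and 3.10, 2.86, 1.83 and 2.80 at 1m, 3m, 9m and 12m. All 5 times passed, where 10.5, 16.2, 14.3, 6.99 and 7.04% of probe sets did. The mean over the 5 times was 2.85 ± 0.11, with 35.1% of probe sets passing. Within arrays with the B suffix Aqp3 differed by 1.47 to 3.73 over 8 comparisons, and within arrays without it by 1.82 to 3.68 over 11. Some of these comparisons rest on a single array in a group.

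**Figure D1:**
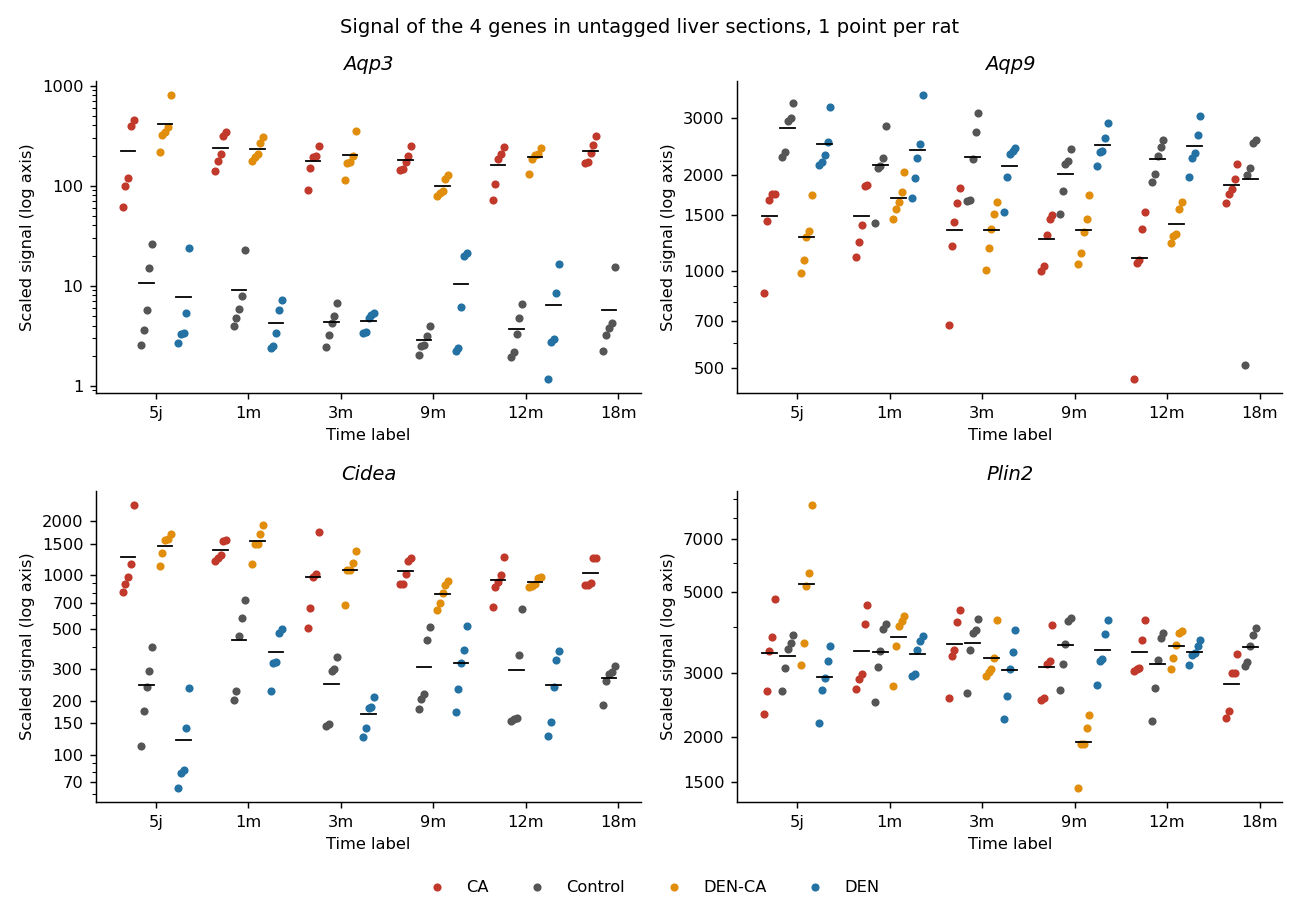
Scaled signal of each gene in every untagged section (log axis) by time label, for the 4 arms; points are rats and black bars group means. CA and DEN-CA rats lie above Control and DEN rats for Aqp3 and Cidea at every time, mostly below them for Aqp9, and among them for Plin2.

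Aqp9, the main glycerol channel of the hepatocyte surface, was bright in every section and lower in most groups given CA. At 5j the CA rats had 854, 1440, 1664, 1737 and 1746, against 2273, 2362, 2946, 3011 and 3355 in Control rats. At 12m the CA rats had 463 (rat 4137), 1065, 1085, 1353 and 1533, against 1901, 2005, 2287, 2442 and 2572 in Control rats. All CA rats were below all Control rats at both times, and also at 9m, where the highest CA rat had 1498 and the lowest Control rat 1504.

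The CA-over-Control difference of Aqp9 was -0.92 ± 0.22 at 5j (adjusted p = 0.0016), -0.77 at 3m (0.0089), -0.67 at 9m (0.047) and -1.10 at 12m (1.1e-04). It did not pass at 1m, with -0.52 (0.10), or at 18m, with 0.12 (0.85). Without Control rat 4015 the 1m value was -0.66 and passed (0.040). Without rat 4137 the 12m difference was -0.83 with an adjusted p of 0.0082. The 9m call was lost when any of 8 rats was left out, and the 3m call without rat 4127, where the difference was -0.55.

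At 18m the CA rats had Aqp9 at 1629, 1739, 1800, 1940 and 2165, against 512 (rat 4040), 2001, 2102, 2517 and 2565 in Control rats. Rat 4040 was far below the other Control rats, which otherwise overlapped the CA rats only in their lower part. Without it the 18m difference of Aqp9 was -0.30, again short of the threshold (adjusted p = 0.50). The change of the CA effect between 18m and 5j was 1.04 ± 0.31 with an adjusted p of 0.096, in a comparison where 0.726% of probe sets passed. It passed without Control 18m rat 4038 (1.18, 0.0496) or 4039 (1.19, 0.039), and was 0.62 without rat 4040 (0.46).

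Over the 6 times the CA effect on Aqp9 was -0.64 ± 0.09, 1.56-fold lower (adjusted p = 1.1e-09). In rats with DEN, Aqp9 differed by -0.95 ± 0.22 at 5j, -0.66 at 3m, -0.88 at 9m and -0.78 at 12m, all of which passed, and by -0.45 at 1m, which did not (0.16). The 3m call was lost when any of 5 rats was left out (-0.62 to -0.56), and the 12m call without rat 4077 (-0.70, adjusted p = 0.053). The DEN-CA rats at 12m had 1228, 1290, 1307, 1566 and 1646, against 1967, 2263, 2330, 2659 and 3047 in DEN rats. These groups did not overlap. The mean over the 5 times was -0.75 ± 0.10. Within arrays with the B suffix Aqp9 differed by -1.07 to -0.23 over 8 comparisons, and within arrays without it by -1.10 to 0.12 over 11. Some of these comparisons rest on a single array in a group.

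Of the 9 other aquaporins listed, 5 were tested. In the mean CA effect 1 rose and 1 fell, where 40.2% of all probe sets passed, with a median of 0.12 against -0.01 over all genes tested. Aqp7, the aquaglyceroporin through which fat cells release glycerol, rose by 1.04 ± 0.07, with CA rats at 78.8 to 274 (median 163) and Control rats at 29.7 to 106 (median 63.3). Aqp8, a water channel of hepatocytes, fell by 0.35 ± 0.08, at a median of 941 in CA rats and 1167 in Control rats. The water channels Aqp1 and Aqp4 each differed by 0.12 and did not pass. Under DEN, Aqp7 rose by 0.91 and Aqp8 differed by -0.17 with an adjusted p of 0.12.

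Cidea stood above the 40th percentile of its array in 70 of 70 rats of the CA and DEN-CA arms and in 77 of 78 rats of the DEN and Control arms. It rose with CA at every time, with and without DEN. At 5j the CA rats had 808, 888, 974, 1156 and 2473, against 111, 175, 238, 294 and 399 in Control rats. At 12m the CA rats had 668 (rat 4137), 860, 918, 1002 and 1270, against 153, 158, 160, 359 and 648 in Control rats. At 12m the lowest CA rat (668) lay close to the highest Control rat (648), and the groups did not overlap at any time.

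The CA-over-Control difference of Cidea was 2.24 ± 0.33 at 5j (adjusted p = 6.1e-08) and 1.74, 1.84, 1.79, 1.79 and 1.86 at 1m, 3m, 9m, 12m and 18m, and all passed. Folds ran between 3.35 and 4.71. The mean over the 6 times was 1.88 ± 0.13, 3.67-fold (adjusted p = 2.7e-25). Unlike that of Aqp3, this value moved little with the offset: it was 1.96 with an offset of 6 and 1.63 with one of 99. Without rat 4137 the 12m difference was 1.90.

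In rats with DEN the 5j groups stood furthest apart, with Cidea at 1124, 1337, 1571, 1588 and 1699 in DEN-CA rats, against 64.9, 78.5, 81.6, 140 and 235 in DEN rats. At 9m the DEN-CA rats had 638, 698, 792, 883 and 931, against 172, 231, 323, 381 and 518 in DEN rats. Neither pair of groups overlapped. The DEN-CA-over-DEN difference of Cidea was 3.46 at 5j (adjusted p = 3.2e-16), 2.02, 2.49, 1.29 (adjusted p = 0.0046) and 1.90 at the later times, and the mean was 2.23 ± 0.15. Within arrays with the B suffix Cidea differed by 0.61 to 3.29 over 8 comparisons, and within arrays without it by 1.32 to 3.77 over 11. Some of these comparisons rest on a single array in a group.

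**Figure D2:**
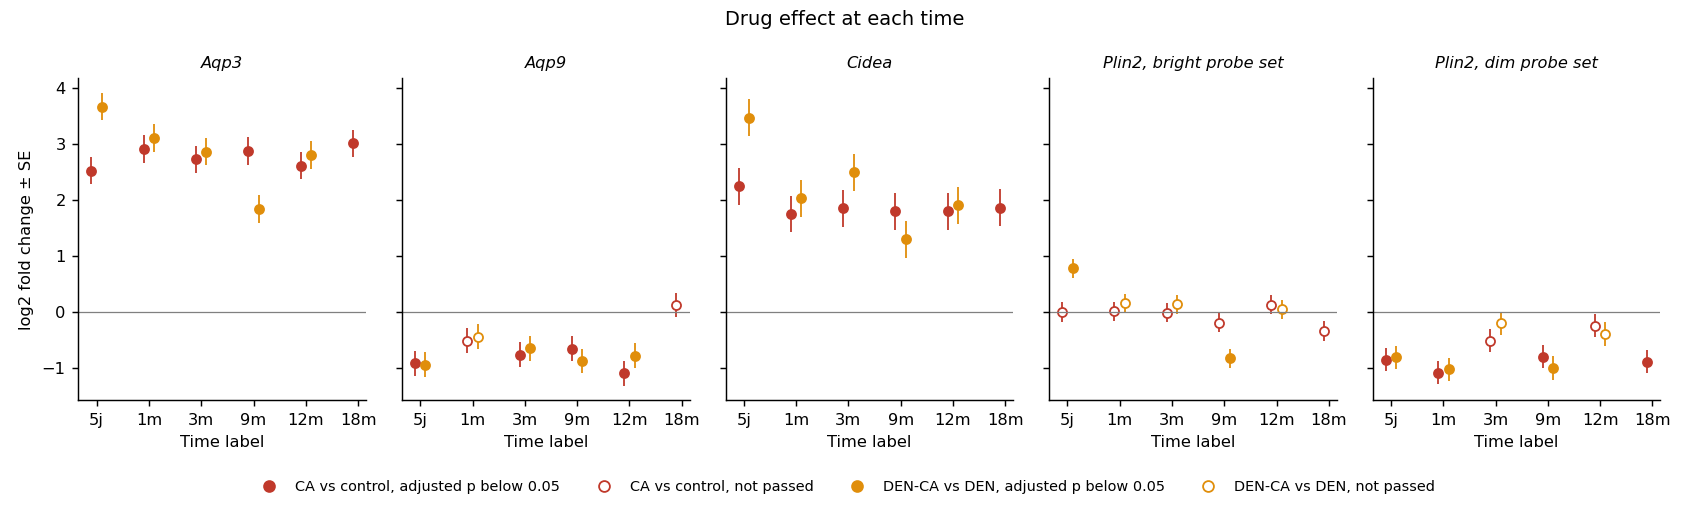
Log2 difference (± SE) of CA over Control and of DEN-CA over DEN at each time label, 1 panel per probe set. Filled points had an adjusted p below 0.05. Aqp3 and Cidea are filled at every time, and Aqp9 lies below 0 at most times. The bright Plin2 probe set passed only at 5j and 9m in rats with DEN. The dim Plin2 probe set lies below 0 for CA over Control at every time.

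Plin2, which coats hepatocyte droplets and is a known PPARalpha target in mouse, was read by 2 probe sets that disagreed. On the bright probe set the 5j CA rats had 2310, 2667, 3437, 3777 and 4799, against 2669, 3085, 3487, 3631 and 3802 in Control rats. The CA rats spread below and above the Control rats. No time passed, with CA-over-Control differences between -0.35 (18m, adjusted p = 0.25) and 0.13 (12m), and the mean effect was -0.07 (95% interval -0.21 to 0.06).

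In rats with DEN the same probe set passed in opposite directions at a pair of times. At 5j the DEN-CA rats had Plin2 at 3150, 3634, 5187, 5648 and 8704, against 2188, 2689, 2903, 3241 and 3549 in DEN rats. At 9m the DEN-CA rats had 1445, 1913, 1915, 2123 and 2300, against 2781, 3236, 3272, 3837 and 4191 in DEN rats. The 5j groups overlapped in their ends and the 9m groups did not. The difference was 0.77 at 5j (adjusted p = 5.1e-04) and -0.83 at 9m (adjusted p = 2.6e-04). At 1m, 3m and 12m it was 0.15, 0.13 and 0.04, and the mean over the 5 times was 0.05 (95% interval -0.10 to 0.20).

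The dim Plin2 probe set was lower with CA. Its 1m CA rats had 31.1, 34.6, 42.8, 53.7 and 71.9, against 80.1, 92.0, 104, 193 and 194 in Control rats, with no overlap. The CA-over-Control difference passed at 5j (-0.86), 1m (-1.09), 9m (-0.81) and 18m (-0.90), and not at 3m (-0.52) or 12m (-0.25). The mean was -0.74 ± 0.08 (adjusted p = 4.4e-13), and -0.69 ± 0.09 for DEN-CA over DEN. At 5j under DEN this probe set differed by -0.82 while the bright one differed by 0.77, both past the threshold. Both are annotated to Plin2, so no single direction can be given for the gene there.

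Around these genes, 16 of 21 listed other lipid droplet proteins were tested. In the mean CA effect 6 rose and 2 fell, and under DEN 5 rose and 2 fell, against 40.2 and 35.1% of all probe sets called, with medians of 0.09 and 0.07 against -0.01 and 0.00 over all genes tested. Acsl3, an acyl-CoA synthetase found on growing droplets, rose by 1.72 ± 0.10 with CA and by 2.01 ± 0.11 under DEN. Its level was 162 to 535 in CA rats, against 36.9 to 162 in Control rats. Hsd17b13, a hepatocyte droplet protein, rose by 0.80 ± 0.11 and 1.07, Plin3, a perilipin that binds new droplets, by 0.78 ± 0.09 and 0.83, and Mettl7a by 0.61 ± 0.10 and 0.73. Chosen after its value was seen, G0s2, an inhibitor of the triglyceride lipase Pnpla2, fell by 0.81 ± 0.14 and 0.71.

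Of 17 listed genes of glycerol and triglyceride synthesis, 11 were tested. With CA 3 rose and 3 fell, and under DEN 3 rose and 2 fell, against 40.2 and 35.1% of all probe sets called. Of the enzymes that complete triglyceride, Dgat1 rose by 0.45 ± 0.05 and Dgat2 fell by 0.49 ± 0.06. Under DEN, Dgat1 rose by 0.48 and Dgat2 fell by 0.54. Agpat2, which makes phosphatidic acid, fell by 0.62 ± 0.08 and Lpin1, which makes diacylglycerol from it, rose by 0.75 ± 0.18. Gk, the kinase that phosphorylates glycerol after it has entered the cell, was picked after its values were seen: it fell by 0.61 ± 0.17 with CA and differed by -0.27 under DEN (adjusted p = 0.27).

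Of 11 listed genes of triglyceride lipolysis, 8 were tested. With CA 3 rose and 4 fell, and under DEN 3 rose and 3 fell, against the same 40.2 and 35.1%. Lpl, the lipase that frees fatty acids from circulating lipoproteins, rose by 1.70 ± 0.09 with CA and by 1.77 under DEN, at 133 to 1052 in CA rats and 60.9 to 154 in Control rats. Lipa, the lysosomal lipase, fell by 0.63 ± 0.06, hepatic lipase Lipc by 0.39 ± 0.06 and the hydrolase Aadac by 0.53 ± 0.09. Under DEN the falls were 0.54, 0.40 and 0.44.

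Of 18 listed PPARalpha targets and partners, 14 were tested, of which 9 rose and 2 fell with CA and 8 rose and 2 fell under DEN, again against 40.2 and 35.1% of all probe sets. Ehhadh, a peroxisomal beta-oxidation enzyme, rose by 2.10 ± 0.09, Cpt1b, a carnitine palmitoyltransferase, by 2.02 ± 0.08 and the fatty acid hydroxylase Cyp4a1 by 1.34 ± 0.08. Acot1, an acyl-CoA thioesterase with near-identical paralogs whose signal its probes may share, rose by 3.56 ± 0.14. The genes that fell were Cpt1a, the liver form of carnitine palmitoyltransferase (-0.35), and Angptl4, a secreted inhibitor of lipoprotein lipase (-0.70).

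For DEN alone no difference was detected. No member passed for DEN over Control at -8, 5j, 1m, 3m, 9m or 12m, where 0.307, 0.0403, 0, 0.00807, 0 and 0% of probe sets did. The furthest was Cidea at 5j, at -0.90 ± 0.33 (adjusted p = 0.51). The difference between the DEN-CA-over-DEN effect and the CA-over-Control effect passed for no member either, where 0.0403, 0, 0.218, 0.00807 and 0% of probe sets did at 5j, 1m, 3m, 9m and 12m and 0.0403% over these times. At 5j it was 1.14 ± 0.35 for Aqp3 (0.19), 1.23 ± 0.46 for Cidea (0.36) and 0.78 ± 0.24 for Plin2 (0.21). Without CA 5j rat 4121 the Aqp3 value was 1.46 and passed (0.032). At 9m the values had the opposite sign, at -1.04 ± 0.35 for Aqp3, -0.50 ± 0.46 for Cidea and -0.63 ± 0.24 for Plin2, with adjusted p between 0.94 and 0.95. Over shared times it was 0.13 for Aqp3 (95% interval -0.18 to 0.43), 0.05 for Aqp9 (-0.22 to 0.33) and 0.35 for Cidea (-0.05 to 0.76).

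Markers of other cells were measured beside these results. Of all probe sets, 40.2% passed in the mean CA effect and 35.1% in the mean effect under DEN, and 11.2 and 10.5% at 5j. Macrophage markers were lower with CA: 6 of 6 tested fell in both mean effects, among them Lyz2 by 0.54 ± 0.06 and the Kupffer cell lectin Clec4f by 0.52. Their summed level was 2201 to 5147 in CA rats, against 3785 to 8698 in Control rats. Of 8 hepatocyte markers 1 fell with CA and 6 fell under DEN, and their sum was 58707 to 198800 in CA rats, against 71529 to 133418 in Control rats. At 5j both erythrocyte markers tested fell, Hbb by 1.62 with CA and by 1.48 under DEN, and Alas2 by 0.94 and 0.97. Of 6 stellate cell and fibroblast markers Col3a1 fell in both mean effects, by 0.38 and 0.36, and Des under DEN, by 0.26.

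Of 4 fat cell markers tested, Lpl rose in both mean effects and Fabp4 under DEN, by 0.53 ± 0.16 (adjusted p = 0.0050). Fabp4 also rose at 12m, by 1.03 with CA and 1.49 under DEN. Lep was dim, with medians of 7.01 in CA rats and 6.25 in Control rats, and Plin1 had 32.1 and 38.7. Of 3 duct markers tested, Epcam rose by 1.00 ± 0.06 with CA and by 1.01 under DEN. Spp1 (0.06 and 0.12) and Krt19 (-0.13 and -0.03) did not pass. Krt19, and Krt7, which was not among those tested, were dim in every arm. The sum of the duct list was 298 to 846 in CA rats (median 489), against 171 to 376 in Control rats (median 266). Of 4 pancreatic acinar markers tested, Cela1 rose, by 1.91 and 1.93. The part of any of these in the members' results was not tested.

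In rats tagged rev the rises of Aqp3 and Cidea were not seen. The CA 18m rev rats had Aqp3 at 3.23, 3.28, 3.69 and 3.75, against 169 to 314 in the 5 CA 18m rats. The DEN-CA 12m rev rats had 1.49, 1.97, 3.28, 3.66 and 21.1, against 132, 185, 200, 208 and 238 in DEN-CA 12m rats. All rev rats were below every rat of the matching group without the tag.

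Aqp3 differed by -3.10 ± 0.26 between CA 18m rev and CA 18m (8.56-fold lower with the offset, adjusted p = 5.6e-19) and by -2.81 ± 0.24 between DEN-CA 12m rev and DEN-CA 12m (9.2e-18). In these comparisons 14.7 and 12.8% of probe sets passed. Against Control 18m rev rats, which ranged from 6.42 to 10.6, the CA 18m rev rats did not overlap but were not told apart by the test (-0.25 ± 0.30, adjusted p = 0.87), and every signal in both groups lay below the offset. No member passed in that comparison, where 0.734% of probe sets did, or between DEN-CA 12m rev and DEN 12 rev, where 0.121% did.

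Cidea in the CA 18m rev rats was 185, 237, 373 and 463, against 879, 886, 900, 1247 and 1248 in CA 18m rats. In DEN-CA 12m rev rats it was 140, 208, 212, 280 and 697 (rat 4112), against 864, 866, 889, 970 and 983 in DEN-CA 12m rats. Neither pair overlapped, and rat 4112 had the highest Cidea and the highest Aqp3 (21.1) of its group. The differences were -1.70 ± 0.35 (adjusted p = 1.6e-04) and -1.70 ± 0.33 (8.3e-05). Control 18m rev rats had 258, 299 and 390, within the range of the CA 18m rev rats. DEN 12 rev rats ranged from 176 to 1107, with a median of 425.

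**Figure D3:**
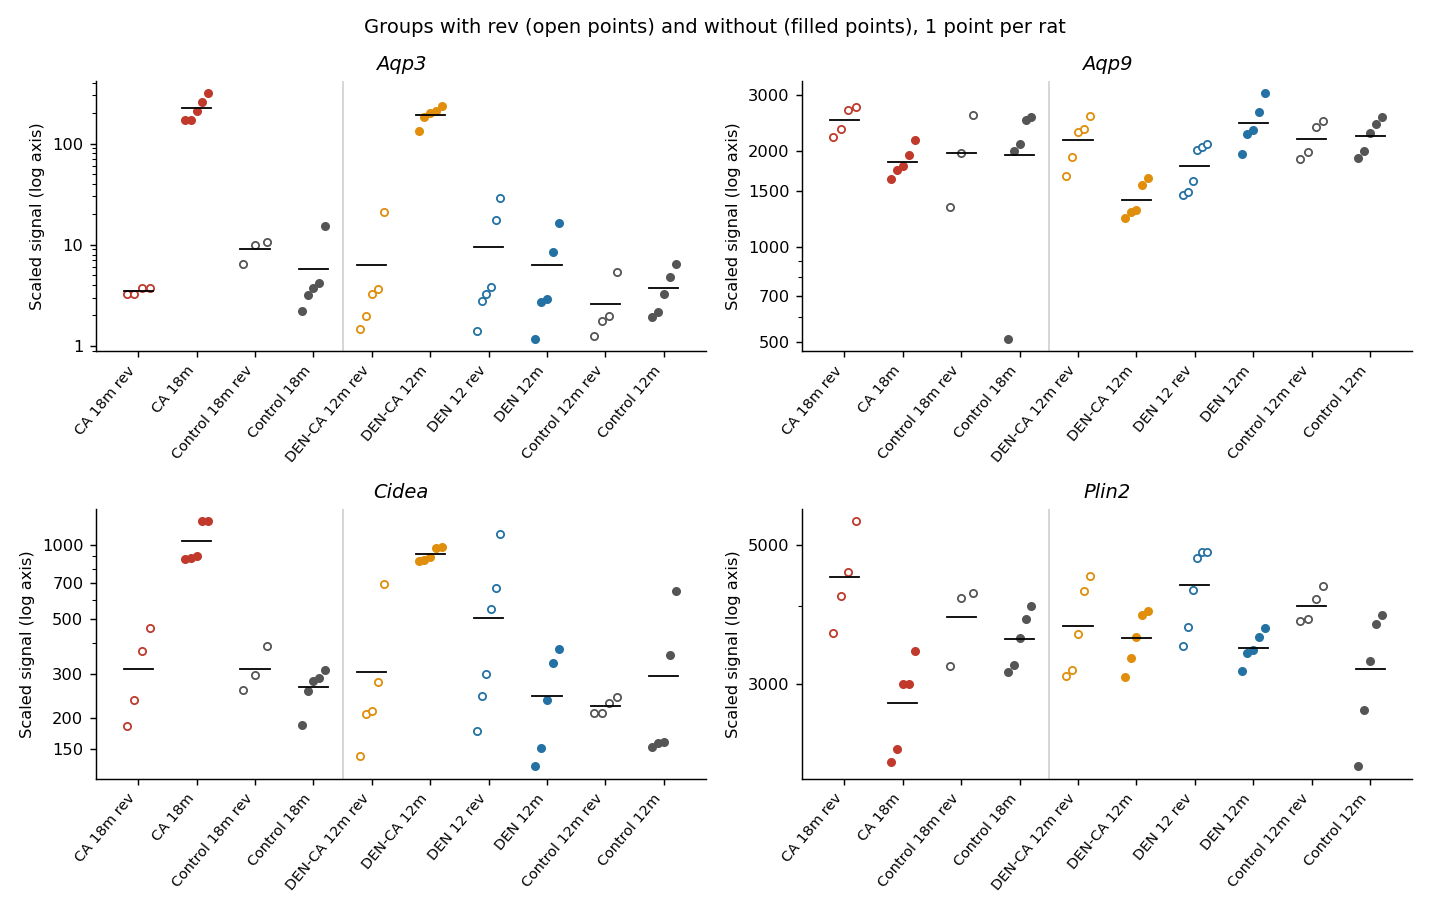
Scaled signal (log axis) of the 4 genes in rev groups (open points) and the matching groups without rev; black bars are group means. Aqp3 and Cidea of CA and DEN-CA rats tagged rev lie with the DEN and Control rats.

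Aqp9 was higher in rev rats than in their arm without rev, short of the threshold in both. The CA 18m rev rats had 2220, 2345, 2690 and 2762, against 1629, 1739, 1800, 1940 and 2165 in CA 18m rats. The DEN-CA 12m rev rats had 1674, 1920, 2298, 2344 and 2584, against 1228, 1290, 1307, 1566 and 1646 in DEN-CA 12m rats. The differences of 0.43 ± 0.23 (adjusted p = 0.22) and 0.60 ± 0.22 (0.053) did not pass, where 14.7 and 12.8% of probe sets did. Neither pair overlapped, but how many of all probe sets show this was not counted.

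Plin2 on the bright probe set was 3623, 4145, 4526 and 5459 in CA 18m rev rats, against 2255, 2360, 2995, 2999 and 3381 in CA 18m rats. The groups did not overlap, and the difference of 0.66 ± 0.18 passed (adjusted p = 0.0061). In DEN-CA rats it was 0.05. The dim probe set rose in both, by 1.00 ± 0.22 and 1.23 ± 0.21. At 12m its DEN-CA rev rats had 160, 196, 207, 265 and 272, against 64.0, 68.6, 70.9, 88.9 and 102 in DEN-CA rats without rev. Of rats not given CA, Control 12m rev rats had 189 to 275 on it, against 106 to 127 in Control 12m rats. Control 18m rev rats had 115 to 305, against 86.8 to 202 in Control 18m rats. DEN 12 rev rats had 94.5 to 204, against 58.1 to 148 in DEN 12m rats. These last 2 pairs overlapped.

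The drug effect in rev groups was set against the effect in groups without rev. This difference of effects passed for Aqp3, at -3.26 ± 0.38 in CA rats (adjusted p = 1.4e-10) and -2.92 ± 0.34 in DEN-CA rats (9.4e-11), and for Cidea, at -1.92 ± 0.52 (0.027) and -2.52 ± 0.45 (5.0e-05). For Aqp9 it passed in DEN-CA rats, at 1.06 ± 0.31 (0.037). In all, 1.46 and 2.3% of probe sets passed. The Cidea call in CA rats was lost when any of 5 rats was left out, and the Aqp9 call when any of 11 was.

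Of the neighbouring genes, Aqp7 (-1.05 and -1.67), Acsl3 (-1.59 and -1.06) and Lpl (-1.40 and -1.30) fell in CA 18m rev and DEN-CA 12m rev rats against the same arm without rev, and Lipa rose (0.73 and 0.51). Hsd17b13 and Mettl7a fell in CA 18m rev rats (-1.24 and -0.91), with -0.56 and -0.37 in DEN-CA 12m rev rats, short of the threshold. Plin3 fell in DEN-CA 12m rev rats (-0.69) and differed by -0.13 in CA 18m rev rats. Macrophage markers moved as well, with 4 of 6 higher in the rev rats of each arm, where 14.7 and 12.8% of all probe sets passed. C1qa and C1qb passed in both arms, Clec4f and Lyz2 in CA 18m rev rats, and Cd68 and Csf1r in DEN-CA 12m rev rats. Epcam fell in the rev rats, by 0.89 and 0.79, and Cela1 by 1.58 and 1.39. The part of these was not tested.

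The CA group labelled 18 had Aqp3 at 136 to 362, Cidea at 823 to 1540 and Aqp9 at 1869 to 2699 (medians 186, 1318 and 2427, 6 rats). No member passed between it and CA 18m, where 7% of probe sets did. Against Control 18m, where 23.2% did, Aqp3 rose by 2.88 ± 0.23 (adjusted p = 3.3e-20) and Cidea by 2.11 ± 0.31 (6.1e-08). Aqp9 differed by 0.47 and Plin2 by -0.27, and neither passed. The Aqp9 value turned on single Control 18m rats: it was 0.05 without rat 4040 (adjusted p = 0.91), and it passed without rat 4038 (0.61, 0.041) or 4039 (0.61, 0.038).

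The DEN-CA effect at 12m minus that at 5j was -1.57 ± 0.46 for Cidea (adjusted p = 0.087) and -0.86 ± 0.35 for Aqp3 (0.36), and no member passed, where 0.888% of probe sets did. The Cidea value passed without DEN 12m rat 4073 (-1.75, 0.046) or DEN 5j rat 4056 (-1.81, 0.026), and that of Plin2, -0.73, passed without DEN-CA 5j rat 4088 (-0.89, 0.041). Across time within Control rats, Aqp9 was lower at 18m than at 5j by -0.69 ± 0.22 (adjusted p = 0.037), where 7.22% of probe sets passed. Without rat 4040 it was -0.27 (0.55), and the call was also lost without Control 5j rat 4006, 4007 or 4010. No member passed between CA 18m and CA 5j, where 8.29% of probe sets did. Nor did any pass between Control rev rats and Control rats at 18m or 12m, where 9.79 and 0.121% did. Plin2 is taken here on its bright probe set.

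TU sections were compared with the untagged section of the same rat. In 9 rats of the CA arm (2 labelled 12m, 4 labelled 18m, 1 labelled 18m rev and 2 labelled 18) Aqp9 was lower in TU in 8, all but rat 4137. The 8 TU sections of CA 18m rats had Aqp9 at 433 to 1680 with a median of 614, against 1629 to 2165 in the CA 18m group. The highest TU section, 1680 from rat 4142, was the only one to reach the range of the untagged ones.

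Aqp9 differed by -1.20 ± 0.27 between TU and untagged sections in the CA arm (2.30-fold lower, adjusted p = 0.031), where 3.74% of probe sets passed. Without rat 4137 it was -1.56, with an adjusted p of 6.6e-07. The call was lost when any of the other 8 rats was left out. In the DEN-CA arm Aqp9 was lower in TU in 7 of 7 rats. The 12m TU sections had 261, 558 and 696, against 1228 to 1646 in the DEN-CA 12m group, and the 9m ones had 355, 374 and 451, against 1058 to 1729 in the DEN-CA 9m group. The difference was -1.72 ± 0.30 (3.31-fold lower, adjusted p = 6.1e-04), with 29.6% of probe sets passing.

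Aqp3 was above the Control range in most TU sections of rats without rev. The 8 CA 18m TU sections had 44.3 to 171, against 2.21 to 15.3 in Control 18m rats. Their difference was 2.09 ± 0.26 (adjusted p = 4.3e-11), in a comparison where 18.3% of probe sets passed. In the same comparison Cidea was higher by 1.34 ± 0.35 (0.0022), and Aqp9 and Plin2 were lower, by -1.31 ± 0.23 (5.0e-06) and -0.59 ± 0.18 (0.011). The Plin2 call was lost without rat 4144 (-0.52, adjusted p = 0.052). The lowest Aqp3 of a TU section without rev was 5.80, inside the Control range, in a DEN-CA 9m rat whose untagged section had 115.

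Against the same rats' untagged sections, Aqp3 was lower in TU in 8 of 9 rats of the CA arm (-0.56 ± 0.30, adjusted p = 0.28) and in 6 of 7 of the DEN-CA arm (-0.91 ± 0.34, adjusted p = 0.047). Without rat 4137 the CA value was -0.80 and passed (0.037). The DEN-CA call was lost when any of 6 of the 7 rats was left out. The exception to its direction was rat 4111, tagged rev, whose pair of TU sections had Aqp3 at 19.1 and 124, against 1.49 in its untagged section. Cidea in these TU sections was 199 and 210, against 212 untagged. In the CA arm the rev rat 4151 had Aqp3 at 2.84 in TU, at the dim end of the arrays. It counts among the 8 rats lower in TU, by a difference of -0.02.

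Cidea and Plin2 did not pass between TU and untagged sections in either arm. Cidea differed by -0.12 ± 0.16 in the CA arm, where it was lower in 6 of 9 rats with a median of -0.40. The highest differences there were 1.25 in rev rat 4151 and 0.55 in rat 4137. With a rat left out the CA value ran from -0.29 to -0.03. In the DEN-CA arm Cidea differed by -0.37 ± 0.18 (adjusted p = 0.13) and was lower in 7 of 7 rats. The CA 18m TU sections had Cidea at up to 906 with a median of 674, against 879 to 1248 in the CA 18m group. The TU section of the rev rat 4151 had 473, against 185 in its untagged section. Plin2 differed by -0.25 ± 0.16 and 0.15. In rat 4151 it was 1444 in TU, against 3623 untagged.

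**Figure D4:**
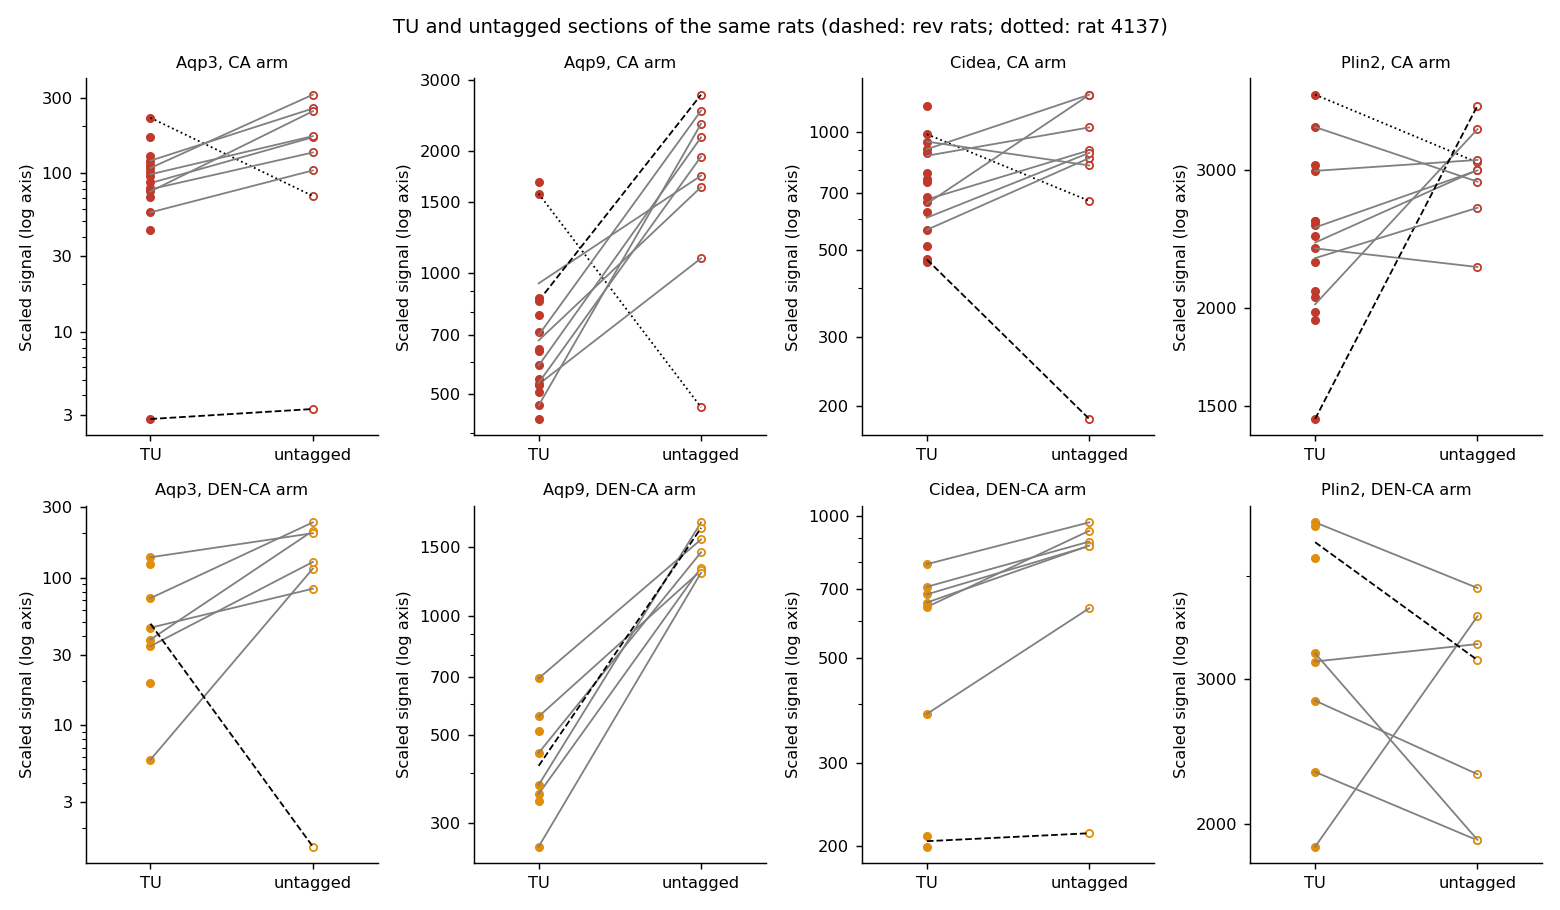
Scaled signal (log axis) in TU and untagged sections of the same rat, joined by lines, for CA and DEN-CA rats; dashed lines are rev rats and the dotted line is rat 4137. Lines stand for rats and start at the mean of a rat's TU sections. Aqp9 is lower in TU in every rat but the dotted one.

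PERI sections had Aqp3 at 157 to 261, Aqp9 at 1438 to 1809 and Cidea at 782 to 1159. No member passed against the untagged section, where 0% of probe sets did, or between TU and PERI, where 0.019% did. TU minus PERI was -1.04 ± 0.28 for Aqp3 (adjusted p = 0.096) and -1.07 ± 0.22 for Aqp9 (0.094).

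Hepatocyte markers did not pass between TU and untagged sections in either arm (0 of 8), where 3.74 and 29.6% of all probe sets did. In the CA arm all 8 were lower in TU, from -0.21 (Apob) to -0.44 (Apoa1). In the DEN-CA arm their signs were mixed, from -0.22 (Ass1) to 0.45 (Apoa1). Macrophage markers fell in TU, 2 of 6 in the CA arm and 4 of 6 in the DEN-CA arm, summing to 1941 to 6782 in DEN-CA TU sections, against 3538 to 8569 in the untagged sections of the same rats. Fabp4 rose in TU by 1.54 and 1.47. In the DEN-CA arm Acta2 and Col1a1 of the stellate cell and fibroblast list rose by 0.72 and 0.50 and Lrat fell by 0.76. Hbb and Alas2 fell by 0.80 and 0.67 there, Cfd of the fat cell list fell by 0.91, and the acinar markers Cela1 and Pnlip rose by 0.97 and 0.89. One DEN-CA TU section reached a sum of 19993 for pancreatic acinar markers, against 1801 at the median of TU sections of that arm. The part of these in the members' results was not tested. Among the listed lipid genes, Agpat2 (-0.81 and -1.02), Dgat2 (-0.58 and -0.47) and Lipa (-0.52 and -0.83) fell in TU in the CA and DEN-CA arms. Aqp7 rose in DEN-CA TU by 0.59 and differed by 0.41 in CA TU.

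The groups were split by their labels into 2 sets, 12 groups given CA without the rev tag and 18 others. Over the 30 group means, Aqp3 was most like Cpt1b (r = 0.977), Hdc (0.976) and Mrps18b (0.974), and Cidea most like Aqp3 (0.951), Apool (0.949) and Zwint (0.947), among 8732 genes. Those values span both sets. Within the 12 groups given CA, Aqp3 and Cidea had r = 0.795, and within the 18 others 0.245. Aqp9 was most like Spp2 (0.913), Rida (0.898) and Rnd2 (0.886) over all groups. With Aqp3 it had r = 0.206 within the groups given CA and -0.0065 in the others.

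Plin2 had no gene as close, the nearest being Acot7 (0.697), Tubb4b (0.692) and Gde1 (0.675). Within the groups given CA its means followed Aqp3 (0.819) and Cidea (0.626), and within the others Cidea (0.617). All values of Plin2 here are on its bright probe set. Of the groups given CA, DEN-CA 5j had the highest mean signals of Aqp3 and Plin2 (414 and 5264) and DEN-CA 9m the lowest (98.8 and 1939). The correlations are descriptions over groups of unequal size that share arrays, strain and tissue.

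**Figure D5:**
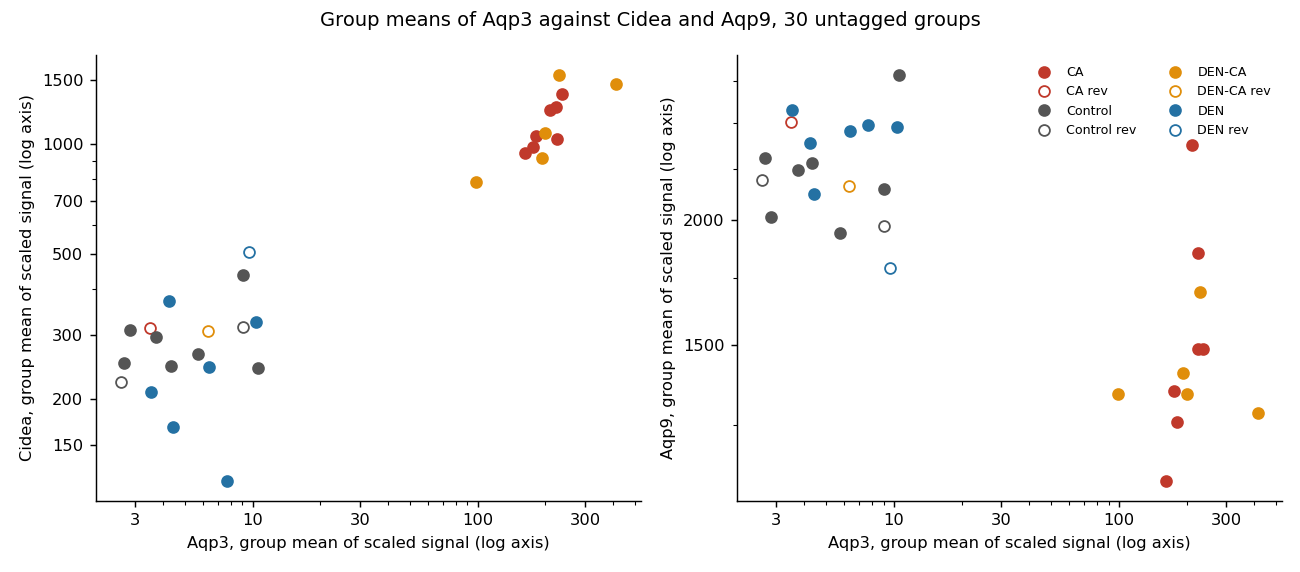
Group means of the scaled signal (log axes) of Cidea and of Aqp9 against Aqp3, 1 point per untagged group, with rev groups as open points. The groups given CA without rev lie apart from the others in Aqp3 and Cidea, where they are high, and are mostly low in Aqp9.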

How the data were processed

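RNA from rat liver sections had been hybridised to 176 Affymetrix arrays. The deposited values are intensities on a linear scale, made with MAS5 per the submitters' processing notes; its version, scaling target and detection calls were not given in the sources used here. Groups, times, rat numbers and section tags were read from the labels, and rats with different numbers were taken as separate animals. The members and gene lists were chosen with earlier results of these data known.

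The ratio of the 90th to the 10th percentile of array medians was 2.13, above a limit of 1.5, so each array was scaled to a median of 99.35 and log2(signal + 25) was taken. A shift common to most genes is therefore removed. Probe sets above the 40th percentile of their array on at least 3 arrays were tested with limma 3.58.1 in R 4.3.3 (lmFit, eBayes with trend, two-sided), with Benjamini-Hochberg adjustment over all probe sets tested and a threshold of 0.05. Untagged sections were fitted together (12393 probe sets, 118 residual degrees of freedom). TU and PERI sections were averaged per rat and set against the same rat (11566 and 10174 probe sets, 14 and 4 degrees of freedom), which pairs them by animal. TU sections of CA 18m rats were also fitted with the untagged sections (12451 probe sets).

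Probe sets were named through Entrez identifiers (12748), accessions (2) or the array's own name (33), while 312 had several genes and 2827 none. Genes named from a list were up to 4 with the smallest p in the mean CA effect. The number of arrays limits the precision. Log2 values of arrays of a group correlated at 0.929 or more (median 0.971), and 0 arrays were identical. The fits were tested on simulated data. Promoter windows are RefSeq's for GRCr8, and windows of Aqp9 and Plin2 that overlap the gene are not printed. Plots were drawn with matplotlib 3.10.9.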

Additional observations from a re-analysis of the deposited data

Results flagged for a closer look

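In 7 of 116 combinations of gene and untagged group a single rat lay far from the rest of its group, where chance gives about 1 in 20. For Aqp3 these were Control 18m rat 4036 with a scaled signal of 15.3 (others 2.21 to 4.21), Control 1m rat 4012 with 22.5 (3.92 to 7.91), DEN 5j rat 4056 with 23.7 (2.70 to 5.39) and DEN-CA 12m rev rat 4112 with 21.1 (1.49 to 3.66), all at the dim end of the array. For Aqp9 they were CA 5j rat 4118 with 854 (1440 to 1746), Control -8 rat 4002 with 1303 (2250 to 2764) and Control 18m rat 4040 with 512 (2001 to 2565).

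The drug effect differed between rev groups and groups without rev, as tested by the difference of effects. For Aqp3 this was -3.26 in CA rats (adjusted p = 1.4e-10) and -2.92 in DEN-CA rats (9.4e-11). For Cidea it was -1.92 (0.027) and -2.52 (5.0e-05). For Aqp9 it was 1.06 in DEN-CA rats (0.037).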

How the results depend on the processing

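Of 1828 values under other settings, 1742 kept their call and direction, 35 gained a call, 47 lost one and 4 changed sign where either value passed. Of 2820 values with a rat left out, 2758 kept it, 12 gained one and 50 lost one. Among all of these, 170 changed sign where neither value passed, and they are counted as kept. The cause was not tested for any.

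Aqp3 in TU of the DEN-CA arm lost its call with an offset of 6 (-1.06), no scaling (-0.87), no filter (-0.91), no replicate block (-0.91, adjusted p = 0.16) and a random replicate block with a within-rat correlation of 0.132 (-0.86). With a rat left out it ran from -1.33 to -0.69. Aqp9 in TU of the CA arm lost its call with no scaling (-0.84), no filter (-1.20) and rev rats left out (-1.14), and ran from -1.56 to -1.07 with a rat left out. Aqp3 in TU of the CA arm ran from -0.80 to -0.46. Cidea in TU of the DEN-CA arm passed with rev rats left out (-0.42).

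Aqp9 in DEN-CA 12m rev against DEN-CA 12m passed with an offset of 99 (0.58), no scaling (1.21), a 70th percentile filter (0.60), quantile normalisation (0.58), the B suffix as covariate (0.60), array weights (0.68) and the 2 groups alone (0.60), and ran from 0.54 to 0.69 with a rat left out. In CA 18m rev against CA 18m it passed with array weights (0.46) and the groups alone (0.43).

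Plin2 in the mean CA effect passed with no scaling (-0.30) and with the dim probe set (-0.74), and in CA 18m rev against CA 18m it lost its call with no scaling (0.25). With the dim probe set Plin2 changed sign and passed at CA 1m (-1.09), DEN-CA 5j (-0.82), DEN-CA 1m (-1.03) and the DEN-CA mean (-0.69). Of these only DEN-CA 5j had passed on the bright probe set. The dim probe set also passed in DEN-CA 12m rev against DEN-CA 12m (1.23). No paired analysis was possible between groups of untagged sections, because each rat number occurs in 1 of them. Means over all times could not be had within arrays with the B suffix.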
